A study of Mus musculus with 5 samples.

Results

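Thymic cells from mice injected with the synthetic glucocorticoid dexamethasone were compared with thymic cells from mice injected with phosphate-buffered saline (PBS), and an array of untreated mice served as a further reference. The mice were males of CD-1, an outbred stock, aged 4 to 6 weeks. The dexamethasone group had received 0.2 mg of the drug per mouse into the peritoneum and was taken after 4 h, the PBS group had received PBS by the same route and was also taken after 4 h, and the untreated group had no injection. Each group was 1 Affymetrix array of RNA from the pooled thymic cell suspensions of 3 mice, so each pool gives 1 value per gene, the spread between animals was not measured, and no difference below has a test. The series holds 5 arrays in all; the other 2 are suspensions kept in culture for 4 h with dexamethasone (written 10e-7 M in the labels) or with its vehicle, 0.1% ethanol, and their values are set beside those of the animals. Each gene symbol was represented by the probe set with the highest mean over the 5 arrays, and the 9882 of 19764 genes whose mean reached that of the median gene, 5.28, were kept. Levels are deposited log2 values, and a difference is the log2 level on the dexamethasone array minus that on the PBS array. A gene is called higher or lower where the difference is at least 1, which is a 2-fold ratio.

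Glucocorticoids bind the glucocorticoid receptor, which is held in the cytoplasm by Hsp90 and its co-chaperones, moves to the nucleus and binds DNA as a dimer at paired hexamers, or acts through other factors such as AP-1 and NF-kB. The thymus is among the tissues most sensitive to these hormones. Immature thymocytes that carry CD4 and CD8 together die by the mitochondrial pathway of apoptosis after exposure, and the dead cells are taken up by macrophages. The suspensions were bulk samples, in which fewer cells of a type and less RNA per cell cannot be told apart.

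On the dexamethasone array 268 genes (2.71% of the kept genes) were higher than on the PBS array and 146 (1.48%) lower, each by 2-fold or more. Measured against both the PBS and the untreated array, 199 genes (2.01%) passed on the higher side and 99 (1.00%) on the lower side. Between the PBS array and the untreated array, the only pair of groups without the drug in living animals, 19 genes (0.192%) were higher and 37 (0.374%) lower. The differences between dexamethasone and PBS had a median over genes of -0.07 and a standard deviation over genes of 0.482. Between PBS and untreated these were -0.01 and 0.294. With dexamethasone against PBS the quartiles were -0.29 and 0.14. Most kept genes thus lay below 0, which is the background for the counts of list members below 0. The higher side had the longer tail. At 4-fold, 55 genes were higher and 9 lower, and at 8-fold 19 were higher and 0 lower, while PBS against untreated gave 2 and 6 genes at 4-fold and 2 and 4 at 8-fold. Genes were kept on a mean that includes the dexamethasone array. Gdf15, whose levels on the other 4 arrays were below the limit for a kept gene, passed through its dexamethasone level. Thbs1, Ccn1, Timp3, Atf3, Klf4, Ccl12, Cebpd and Mrc1 are further examples that would not have been kept on the mean of the other 4 arrays. How many genes passed in this way was not counted, and the list counts of higher genes include them.

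**Figure D1:**
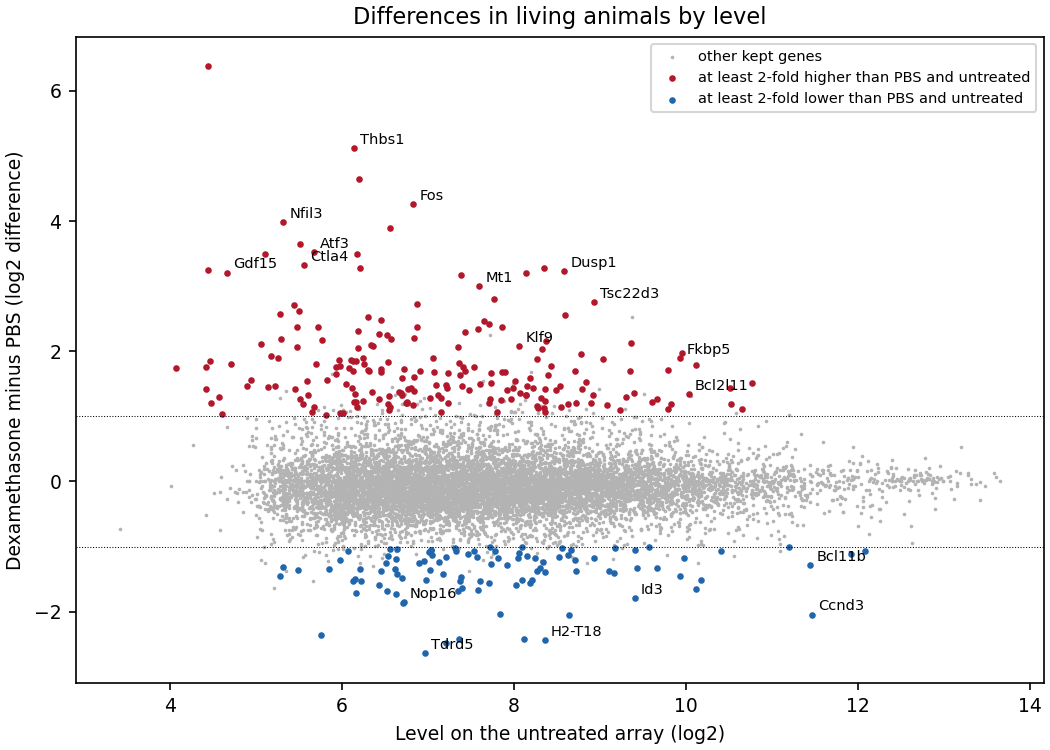
Each point is 1 of 9882 kept genes, with its log2 level on the untreated array on the x axis and its log2 difference, dexamethasone minus PBS, on the y axis; dotted lines mark 2-fold. Red points are the 199 genes at least 2-fold higher than on both reference arrays and blue points the 99 at least 2-fold lower, and the higher genes reach differences above 4 while no lower gene reaches -3.

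The labelled tissue was checked against T-lineage transcripts, which had levels far above the median gene on all 3 arrays. Cd3d, a chain of the T cell receptor complex, was at 11.83 on the dexamethasone array, against 12.20 on the PBS array and 12.14 on the untreated array. Dntt, the terminal transferase of recombining thymocytes, was at 11.05 with dexamethasone, 12.13 with PBS and 12.09 untreated. The suspensions also held other cells, described with their markers further on.

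Transcripts listed here as induced by glucocorticoids had the highest median of the 55 gene lists read. The lists were chosen with earlier results of these data known, so this rank is no independent support. Of 25 listed genes 20 were kept, and 16 of these were higher and 0 lower, against 2.71% and 1.48% of all kept genes; all 16 were also at least 2-fold higher than on the untreated array. The median difference of the 20 was 2.19, and without the level filter, over the 25, it was 2.07. Tsc22d3, which encodes the leucine zipper protein GILZ, a repressor of AP-1 and NF-kB, was at 11.43 on the dexamethasone array, against 8.68 on the PBS array and 8.93 on the untreated array. Fkbp5, a co-chaperone of Hsp90 that lowers hormone binding by the receptor, was at 11.78 on the dexamethasone array, against 9.88 on the PBS array and 9.94 on the untreated array. Nfil3, a basic leucine zipper repressor, was at 8.60 on the dexamethasone array, against 4.61 on the PBS array and 5.32 on the untreated array, a difference of 3.98. For each of these 3 genes the reference arrays lay within 1 unit of each other and the dexamethasone array lay well above both. Ptgr1, a reductase of prostaglandins and leukotriene B4, was at 11.72 with dexamethasone, 8.44 with PBS and 8.35 untreated. Acer2, an alkaline ceramidase of the Golgi, was at 7.78 with dexamethasone, 5.16 with PBS and 5.50 untreated. Cebpd and Cebpb, transcription factors of the C/EBP family, differed by 3.28 and 2.30. The other probe set of Cebpd differed by -0.09, at a mean level of 2.92, below the limit for a kept gene. Klf9, a Krüppel-like repressor, differed by 2.07, Sgk1, a kinase that regulates ion transport, by 1.54, Ddit4, an inhibitor of mTOR, by 1.42, Lcn2, which binds bacterial iron carriers, by 1.29, and Per1, a clock repressor, by 1.27. Rgs2, a brake on G protein signalling, was at 9.08 with dexamethasone, 8.20 with PBS and 8.44 untreated, under the 2-fold limit.

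RefSeq start windows on GRCm38.p6, each running from 250 bases before to 50 bases after an annotated start, were read for 7475 of the kept genes, of which 196 were higher and 100 lower. The dimer site of the receptor, AGAACA, any 3 bases, then TGTTCT, occurred in 1 of the 7475 genes (0.0134%), Sgk1. A looser form, with free bases at the N of NGNACA, any 3 bases, TGTNCN, contains the strict form and occurred in 22 of 7475 genes (0.294%). It was found in 4 of 196 higher genes (2.04%) and 0 of 100 lower genes. The windows of these 4 genes are shown because they are the higher genes with a paired receptor site beside a start, with the site in capitals and 20 bases on each side. Serpina3n, a serine protease inhibitor, lies outside the rule for named genes and was chosen for its site.
Sgk1, chr10:21993681-21993735, plus strand: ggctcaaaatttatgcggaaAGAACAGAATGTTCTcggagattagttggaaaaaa
Mt1, chr8:94178974-94179028, plus strand: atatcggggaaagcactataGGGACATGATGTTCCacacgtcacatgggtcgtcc
Txnip, chr3:96557764-96557818, plus strand: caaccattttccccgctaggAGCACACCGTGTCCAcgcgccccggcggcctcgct
Serpina3n, chr12:104406609-104406663, plus strand: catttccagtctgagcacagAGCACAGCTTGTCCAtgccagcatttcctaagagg
The sites began 189, 95, 173 and 79 bases before the start. Sgk1 was at 9.79 on the dexamethasone array, against 8.25 on the PBS array and 8.01 on the untreated array. Txnip, which binds thioredoxin and lowers glucose uptake, was at 11.89 on the dexamethasone array, against 10.38 on the PBS array and 10.76 on the untreated array. Serpina3n was at 8.04 on the dexamethasone array, against 6.95 on the PBS array and 6.55 on the untreated array. Sgk1 has 6 annotated start windows and the match lies in 1 of them, so a gene with many starts had more chances of a match. The single hexamer AGAACA, which the strict paired form includes, was in 14.3% of higher genes, 12.0% of lower genes and 14.4% of all. A match describes letters in these windows and does not show binding, and a window without one says nothing of more distant sites.

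Genes of the receptor and its partners were mostly close to the PBS level, with 5 of 23 kept genes higher, 0 lower and a median of 0.04. Nr3c1, the receptor itself, was at 10.90 on the dexamethasone array, against 9.59 on the PBS array and 10.06 on the untreated array. Its 5 probe sets, however, ran from -0.28 to 1.71, and the one at -0.28 had a mean level of 2.73. Nrip1, a corepressor of nuclear receptors, was at 10.40 on the dexamethasone array, against 9.06 on the PBS array and 9.51 on the untreated array. Its probe sets also had both signs, with the one below 0 at a mean level of 4.75. Cited2, which binds CBP and p300, was at 9.37 with dexamethasone, 8.14 with PBS and 8.36 untreated. Ncoa2, a coactivator of the p160 family, was at 9.67 with dexamethasone, 8.56 with PBS and 8.84 untreated. Only Fkbp5 and Cited2 of this list were at least 2-fold above the untreated array too. Hsp90ab1, the constitutive Hsp90, was at 11.37 with dexamethasone, 11.33 with PBS and 11.95 untreated, a difference of 0.04.

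**Figure D2:**
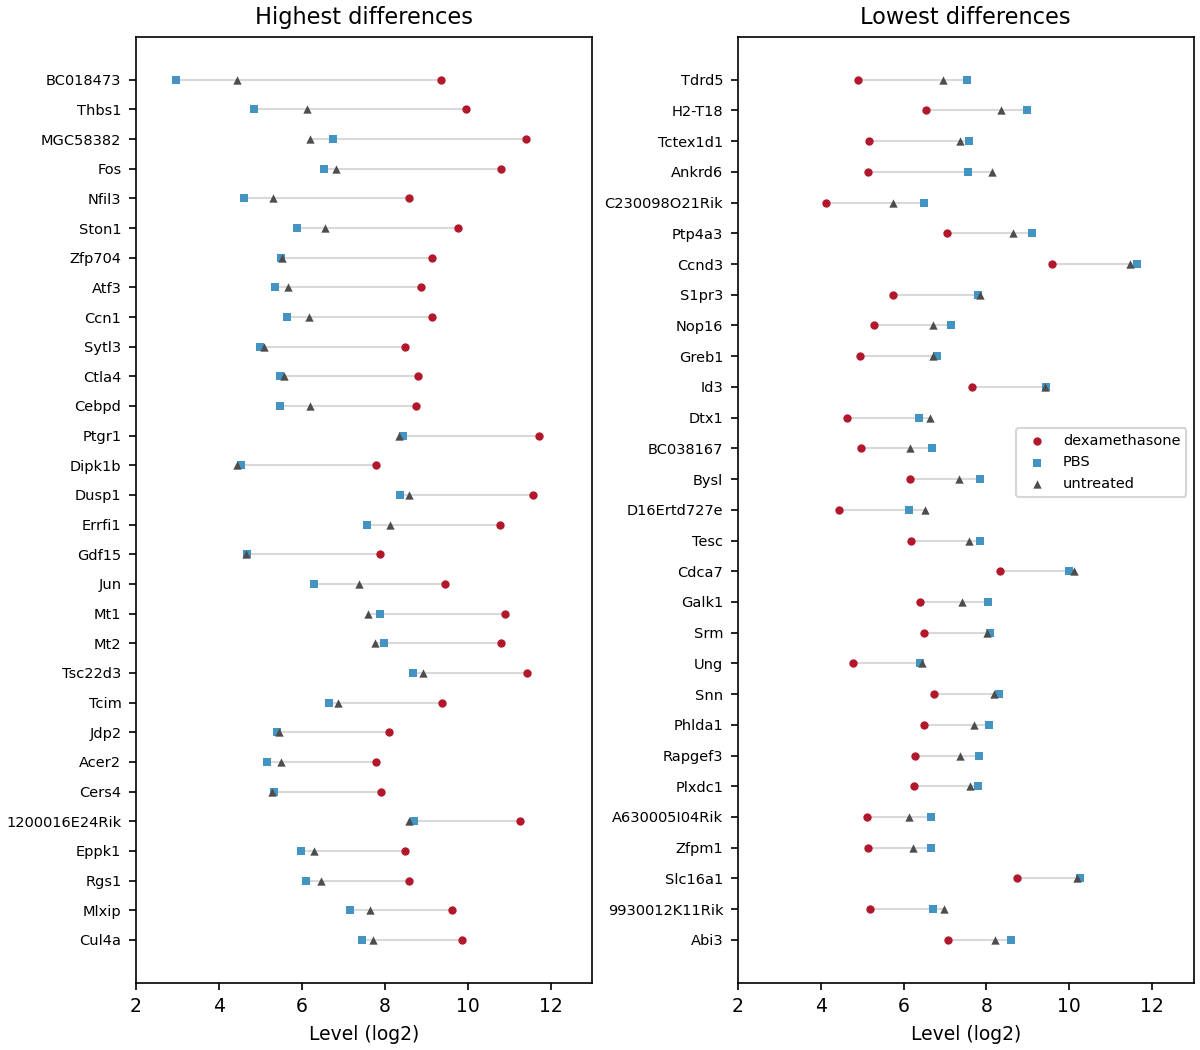
Log2 levels on the dexamethasone (red circles), PBS (blue squares) and untreated (grey triangles) arrays for the 30 highest genes (left panel) and 29 of the 30 lowest (right panel) by dexamethasone minus PBS, among genes at least 2-fold apart from both references. In each row the PBS and untreated symbols lie on the same side of the dexamethasone symbol, and grey bars span the 3 arrays.

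Immediate-early transcription factors formed another group with a large excess in living animals, and one that differed little in culture. Of 20 kept genes 8 were higher and 0 lower, all 8 also against the untreated array. The median was 0.74 in living animals and -0.06 in culture, and without the level filter it was 0.43 in living animals. Fos, a subunit of AP-1, was at 10.80 on the dexamethasone array, against 6.54 on the PBS array and 6.83 on the untreated array, a ratio of 19.1 to PBS. Atf3, a stress-induced member of the ATF/CREB family, was at 8.88 on the dexamethasone array, against 5.36 on the PBS array and 5.67 on the untreated array. Jun, the partner of Fos in AP-1, was at 9.46 on the dexamethasone array, against 6.29 on the PBS array and 7.38 on the untreated array. The untreated level of Jun lay between the others, nearer to PBS. Ier3, an early gene that modulates cell survival, differed by 2.09, Zfp36l2, which speeds the decay of AU-rich transcripts, by 1.87, Maff by 1.46 and Junb by 1.40. Nr4a1, an orphan nuclear receptor induced by T cell receptor signals, was at 9.83 with dexamethasone, 8.90 with PBS and 8.69 untreated, just under the limit. Jdp2, which represses AP-1 and is the chromosomal neighbour of Fos, was at 8.11 on the dexamethasone array, against 5.40 on the PBS array and 5.44 on the untreated array. In culture Fos differed by 0.25, Atf3 by -0.24, Jun by 0.63 and Junb by 0.03, while Jdp2 differed by 2.17 and Zfp36l2 by 1.18. Atf3 lay below the limit for a kept gene on both cultured arrays.

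The cyclic AMP response element, TGACGTCA, lay in the start window of 4.08% of higher genes, 1.00% of lower genes and 3.81% of all, and the AP-1 site, TGANTCA, in 8.67%, 10% and 5.81%. Among genes higher than both references the AP-1 site was in 16 of 146 (11.0%) and the cyclic AMP response element in 6 (4.11%). Among genes lower than both, the AP-1 site was in 7 of 67 (10.4%) and the cyclic AMP response element in 0. No test was made of these shares. Windows are shown for 4 genes described in the text, 2 for each motif and chosen after the matches were seen, with the match in capitals.
Dusp1, chr17:26508588-26508635, minus strand: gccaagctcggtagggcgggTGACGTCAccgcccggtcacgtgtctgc
Errfi1, chr4:150854999-150855046, plus strand: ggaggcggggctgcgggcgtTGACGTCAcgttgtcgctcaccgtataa
Mt2, chr8:94172519-94172565, plus strand: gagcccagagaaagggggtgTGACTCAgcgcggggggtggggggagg
Plaur, chr7:24462394-24462440, plus strand: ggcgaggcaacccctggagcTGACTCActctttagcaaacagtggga
Dusp1 and Errfi1 carry the cyclic AMP response element and Mt2 and Plaur the AP-1 site. The E2F site TTTCGCGC was in 0 of 196 higher and 0 of 100 lower genes and in 0.883% of all. The E-box CACGTG was in 11.7%, 9.0% and 12.4%, and the PAR bZIP site TTANNTAA in 4.08%, 1.00% and 4.17%. All motifs were searched on both strands, and a gene counted when any of its windows held a match.

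Of 10 kept Krüppel-like factors, zinc finger regulators of quiescence and metabolism, 4 were higher and 0 lower. Klf9 was at 9.77 on the dexamethasone array, against 7.70 on the PBS array and 8.06 on the untreated array. Klf4, a factor of quiescence, was at 7.40 on the dexamethasone array, against 5.56 on the PBS array and 6.16 on the untreated array. Klf6 was at 8.89 with dexamethasone, 7.39 with PBS and 7.98 untreated, and its excess over the untreated array was 0.90. Klf15, a regulator of amino acid and lipid metabolism, was at 7.47 on the dexamethasone array, against 5.78 on the PBS array and 6.45 on the untreated array. Its other probe set differed by -0.11, at a mean level of 3.79, below the limit for a kept gene. Klf3 was at 8.98 with dexamethasone, 9.93 with PBS and 10.18 untreated, the lowest difference of the list. Among clock and PAR bZIP genes 2 of 16 were higher, Nfil3 and Per1, and 0 lower, and the list's median was 0.05.

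Transcripts that restrain growth factor and kinase signalling were among the higher genes. Dusp1, a phosphatase that inactivates p38 and JNK, was at 11.59 on the dexamethasone array, against 8.36 on the PBS array and 8.58 on the untreated array. Errfi1, an inhibitor of the EGF receptor family, was at 10.77 on the dexamethasone array, against 7.56 on the PBS array and 8.14 on the untreated array. These were the only higher genes among 11 kept MAP kinase phosphatase and Sprouty genes, and Dusp4, a nuclear phosphatase, was at 6.19 with dexamethasone, 7.0 with PBS and 7.48 untreated. Of 19 kept genes that brake PI3K, FoxO and mTOR signalling 4 were higher, all 4 also against the untreated array, 0 were lower, 17 had a difference above 0 and the median was 0.40. Pik3ip1, an inhibitor of PI3K, was at 10.13 on the dexamethasone array, against 8.43 on the PBS array and 8.70 on the untreated array. Ddit4 was at 10.65 on the dexamethasone array, against 9.23 on the PBS array and 8.80 on the untreated array. Arrdc3, an arrestin-domain protein that lowers receptor signalling, was at 8.57 on the dexamethasone array, against 6.87 on the PBS array and 7.43 on the untreated array, but its other probe set differed by -0.81. Rgs1, which shortens chemokine receptor signals, was at 8.59 on the dexamethasone array, against 6.11 on the PBS array and 6.45 on the untreated array and was the only higher gene of 7 kept RGS genes. Rgs19 and Rgs10 differed by -0.80 and -0.74.

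Among genes of the mitochondrial death pathway, both BH3-only genes, whose products bind and block the pro-survival Bcl-2 proteins, and pro-survival and effector genes of the Bcl-2 family had higher members. Of 9 kept BH3-only genes 4 were higher and 1 lower, and the median was 0.84. Bcl2l11, which encodes Bim, was at 11.31 on the dexamethasone array, against 9.97 on the PBS array and 10.03 on the untreated array, and all 6 of its probe sets were higher, from 1.11 to 2.27. Bbc3, which encodes Puma, was at 7.98 on the dexamethasone array, against 6.28 on the PBS array and 6.90 on the untreated array. Bmf, a sensor linked to the cytoskeleton, was at 9.39 on the dexamethasone array, against 7.88 on the PBS array and 7.74 on the untreated array. Its other probe sets went down to -0.08, and the one at -0.08 had a mean level of 4.98. Pmaip1, which encodes Noxa, was at 7.51 on the dexamethasone array, against 6.24 on the PBS array and 6.96 on the untreated array, so its excess over the untreated array was 0.55. Bid, the BH3-only protein cut by caspase-8, was the lower member, at 6.85 on the dexamethasone array, against 7.97 on the PBS array and 7.76 on the untreated array. Of 8 kept pro-survival and effector genes 2 were higher, Bcl2 and Bok, and 0 lower, with a median of 0.04. The pro-survival gene Bcl2 was at 8.50 with dexamethasone, 7.32 with PBS and 7.60 untreated, a difference of 1.18. Its 7 probe sets ran from -0.12 to 1.18, and the one at -0.12 had a mean level of 2.85. Bcl2l1, which encodes Bcl-xL, was at 8.32 with dexamethasone, 9.10 with PBS and 8.80 untreated, and Mcl1, another pro-survival gene, at 11.22 with dexamethasone, 10.85 with PBS and 10.97 untreated. Bok, an effector of the Bax type, was at 6.84 with dexamethasone, 5.82 with PBS and 5.82 untreated, at the limit, and Bax itself differed by -0.51.

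Downstream of the mitochondria, 0 of 19 kept caspase, apoptosome and IAP genes were called in either direction, and their differences ran from -0.86 to 0.31. Fadd, the adaptor of death receptors, was at 6.43 with dexamethasone, 7.29 with PBS and 6.38 untreated. Of 13 kept death receptor and TNF family genes 0 were called, 11 lay below 0 and the median was -0.42. Tnfrsf25, the death receptor DR3, was at 4.74 with dexamethasone, 5.71 with PBS and 5.91 untreated, Cd27, a costimulatory receptor, at 8.91 with dexamethasone, 9.83 with PBS and 10.18 untreated and Cd40 differed by -0.78. Among 17 kept p53 targets 2 were higher, Bbc3 and Pmaip1, which the BH3-only list also holds, and the median was 0.53. Cdkn1a, the CDK inhibitor p21, was at 9.0 with dexamethasone, 8.04 with PBS and 8.06 untreated and Sesn1, a stress-induced brake on mTOR, at 10.45 with dexamethasone, 9.60 with PBS and 9.60 untreated; both were above the references and under the limit.

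**Figure D3:**
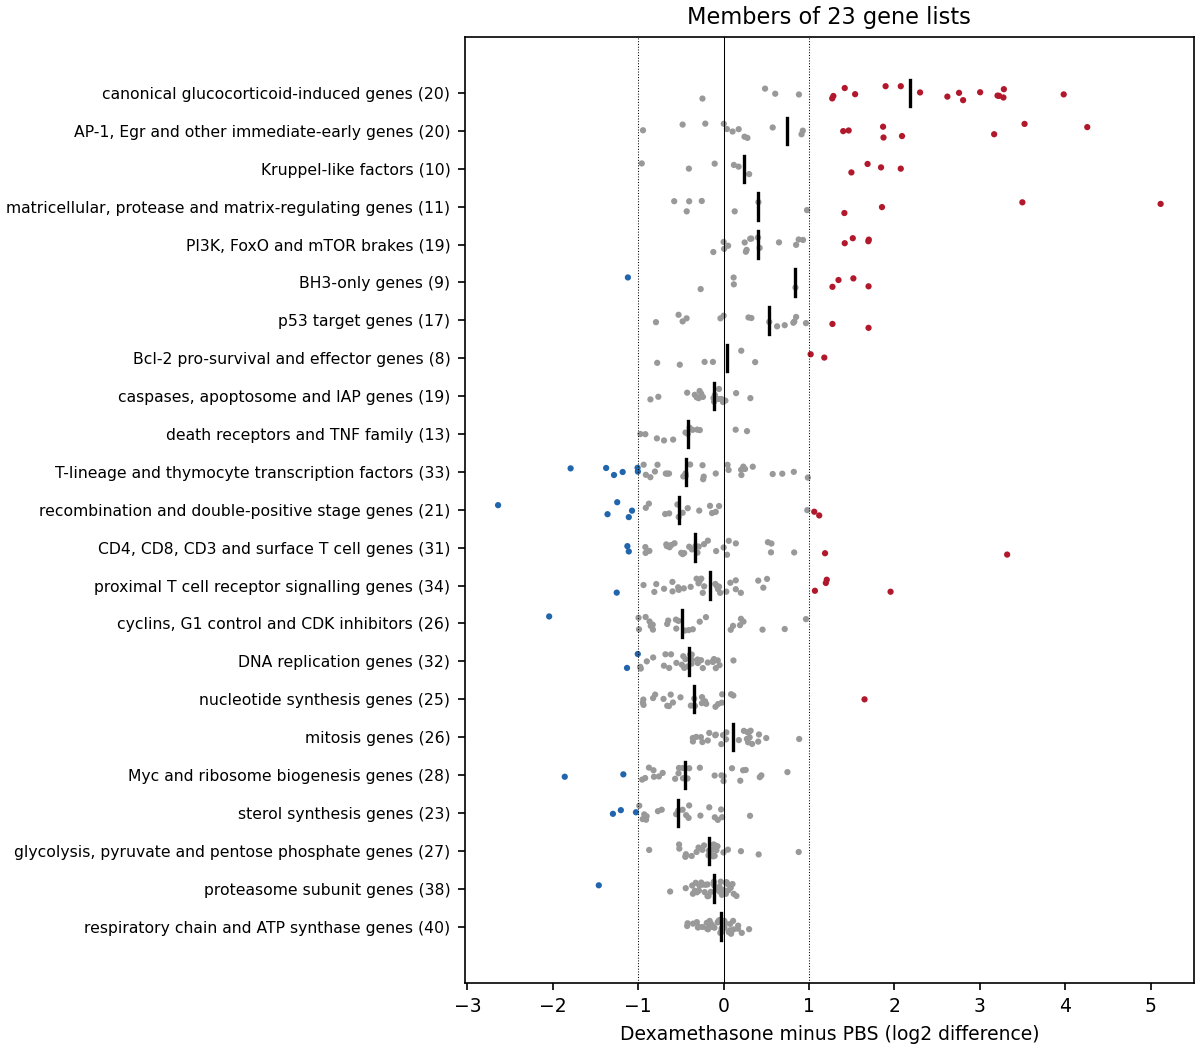
Log2 differences, dexamethasone minus PBS, of the kept members of 23 gene lists (number kept in parentheses); each point is a gene, black bars are list medians, dotted lines mark 2-fold, and red and blue points are called. The canonical glucocorticoid-induced genes and BH3-only genes have medians of 2.19 and 0.84, while the DNA replication, cyclin, ribosome biogenesis and sterol lists have medians between -0.41 and -0.53.

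The lower genes included regulators that define T-lineage cells. Of 33 kept T-lineage transcription factors 6 were lower, against 1.48% of all kept genes, and 0 higher; all 6 were also at least 2-fold below the untreated array. The list median was -0.44. Id3, an inhibitor of E proteins induced by receptor signals, was at 7.64 on the dexamethasone array, against 9.44 on the PBS array and 9.41 on the untreated array, a difference of -1.79. Bcl11b, which fixes T-lineage commitment, was at 9.83 on the dexamethasone array, against 11.12 on the PBS array and 11.45 on the untreated array, and its 6 probe sets ran from -1.51 to -0.95. Gfi1, a zinc finger repressor, was at 7.70 on the dexamethasone array, against 8.88 on the PBS array and 8.93 on the untreated array. Gata3, needed for CD4 T cell development, was at 6.81 on the dexamethasone array, against 7.81 on the PBS array and 8.10 on the untreated array. On these 4 genes the dexamethasone array was the lowest of the 3. Hivep3, a zinc finger factor, differed by -1.38, but its other probe sets ran from -0.40 to -0.18. Ets2 differed by -1.0. Zfpm1, which encodes the GATA partner FOG1 and is not on the list, was at 5.13 with dexamethasone, 6.66 with PBS and 6.22 untreated.

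Genes of antigen receptor recombination and of the double-positive stage were lower in 5 of 21 kept members and higher in 2, with a median of -0.53 and 18 members below 0. Tdrd5, a tudor-domain gene, was at 4.89 on the dexamethasone array, against 7.53 on the PBS array and 6.96 on the untreated array, the lowest difference of all kept genes. Ptcra, the pre-T cell receptor chain, was at 5.67 on the dexamethasone array, against 7.03 on the PBS array and 7.03 on the untreated array. Endou, an endoribonuclease, was at 9.61 on the dexamethasone array, against 10.86 on the PBS array and 10.14 on the untreated array, so the PBS array stood above both others. Dntt differed by -1.07, and Cd8a, a chain of the CD8 coreceptor, was at 10.72 with dexamethasone, 11.84 with PBS and 11.92 untreated. The higher members were Xrcc6, which encodes the DNA end-binding protein Ku70, with a difference of 1.12, and Mns1 at 8.69 with dexamethasone, 7.63 with PBS and 8.01 untreated. Satb1, a chromatin organiser, differed by -0.09.

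Of 16 kept Notch pathway genes 3 were lower and 0 higher. Dtx1, a Notch target and modulator, was at 4.64 on the dexamethasone array, against 6.37 on the PBS array and 6.63 on the untreated array. Notch1 was at 8.06 on the dexamethasone array, against 9.08 on the PBS array and 9.17 on the untreated array, and the remaining lower member was Ptcra, itself a Notch target. Dtx1 differed by 0.02 in culture and Ptcra by -0.14. Notch2 was at 8.17 with dexamethasone, 7.54 with PBS and 7.75 untreated. Among surface molecules of T cells 2 of 31 were higher and 2 lower. Ctla4, an inhibitory receptor for CD80 and CD86, was at 8.80 on the dexamethasone array, against 5.48 on the PBS array and 5.56 on the untreated array, a ratio of 9.99. Pdcd1, which encodes the inhibitory receptor PD-1, was at 7.56 on the dexamethasone array, against 6.37 on the PBS array and 6.54 on the untreated array. Cd5, whose surface level follows receptor signal strength, was at 9.07 on the dexamethasone array, against 10.19 on the PBS array and 9.78 on the untreated array, and Cd8a was the other lower member. Both inhibitory receptors were also higher in culture, by 1.13 and 1.14.

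In the proximal T cell receptor pathway 4 of 34 kept genes were higher and 1 lower, all 5 also against the untreated array, with a median of -0.16. Inhibitors of signalling were among the higher genes. Ptpn22, a phosphatase acting on Lck and Zap70, was at 10.90 on the dexamethasone array, against 8.94 on the PBS array and 8.78 on the untreated array. Ubash3a, a suppressor of receptor signalling, was at 8.62 with dexamethasone, 7.41 with PBS and 7.23 untreated, and Cblb, a ubiquitin ligase that limits costimulation, at 8.54 with dexamethasone, 7.47 with PBS and 7.15 untreated. Lck, the first kinase of the pathway, was at 11.54 with dexamethasone, 12.48 with PBS and 12.62 untreated. Among 19 kept NF-kB genes 1 was higher and 1 lower, shares near those of all kept genes. Tnfaip3, the deubiquitinase A20 that ends NF-kB signals, was at 10.48 with dexamethasone, 9.13 with PBS and 9.40 untreated, and Cd83 at 7.57 with dexamethasone, 8.62 with PBS and 8.66 untreated. Nfkbia, the inhibitor IκBα and a known receptor target, differed by 0.39, and its other probe sets by 0.64 to 0.89. Of 21 kept SOCS, JAK and STAT genes 0 were called, and Socs1, a cytokine feedback inhibitor, differed by -0.96.

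Genes of growth and of entry into the cell cycle lay below the PBS level as groups, with few members past 2-fold. Ccnd3, the cyclin D of thymocyte expansion, was at 9.58 on the dexamethasone array, against 11.62 on the PBS array and 11.47 on the untreated array, although another of its 3 probe sets differed by 0.07. It was the only lower gene of 26 kept cyclin and G1 genes, whose median was -0.49; Cdk2, the partner of cyclin E, was at 7.38 with dexamethasone, 8.37 with PBS and 8.73 untreated and E2f2 at 7.39 with dexamethasone, 8.38 with PBS and 8.41 untreated. Of 32 kept DNA replication genes 31 lay below 0, 2 were lower and the median was -0.41, against 0.23 in culture. Cdc6, which loads the replicative helicase, was at 7.32 on the dexamethasone array, against 8.45 on the PBS array and 8.63 on the untreated array, and Mcm2, a helicase subunit, at 8.41 with dexamethasone, 9.38 with PBS and 9.28 untreated. Chaf1b, a histone chaperone, was the other lower gene, but 1 of its 2 probe sets differed by 0.06, at a mean level of 3.27. Pcna, the replication clamp, differed by -0.68. Mitosis genes did not share this position: 0 of 26 were called, 15 lay above 0 and the median was 0.11. Bub1b, a checkpoint kinase, was at 9.55 with dexamethasone, 8.67 with PBS and 8.71 untreated and Top2a differed by -0.09. Cdca7, a Myc and E2F target, was at 8.33 on the dexamethasone array, against 9.98 on the PBS array and 10.12 on the untreated array, and Ung, the uracil glycosylase that removes uracil from DNA, at 4.79 with dexamethasone, 6.39 with PBS and 6.43 untreated.

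Of 28 kept Myc and ribosome biogenesis genes 2 were lower and 0 higher, and the median was -0.45, against 0.13 in culture. Nop16, a nucleolar protein, was at 5.28 on the dexamethasone array, against 7.14 on the PBS array and 6.71 on the untreated array. Myc was at 6.70 on the dexamethasone array, against 7.88 on the PBS array and 7.81 on the untreated array. Nop16 and Myc are the 2 lower members of the list. Outside the list, Bysl, a factor of small ribosomal subunit assembly beside Ccnd3 on the chromosome, was at 6.15 on the dexamethasone array, against 7.83 on the PBS array and 7.35 on the untreated array. Nop58, a core protein of box C/D particles, was at 7.61 with dexamethasone, 8.56 with PBS and 8.79 untreated and Nhp2 at 8.48 with dexamethasone, 9.40 with PBS and 9.20 untreated, while Npm1 differed by 0.23. Srm, the spermidine synthase and a Myc target, is also outside the list and was at 6.5 on the dexamethasone array, against 8.09 on the PBS array and 8.02 on the untreated array. In culture Nop16 differed by 0.24 and Srm by 0.28. Among 25 kept nucleotide synthesis genes 22 lay below 0, with a median of -0.34; Gart, of purine synthesis, was at 6.99 with dexamethasone, 7.94 with PBS and 8.14 untreated, Atic at 8.65 with dexamethasone, 9.58 with PBS and 9.51 untreated, Mthfd1, of the folate cycle, at 7.45 with dexamethasone, 8.39 with PBS and 8.46 untreated, and Rrm2, of ribonucleotide reductase, differed by -0.83. Shmt1 was the 1 higher gene, at 1.65, but its 4 probe sets ran from -1.25 to 1.65. Of 25 translation factors 1 was higher and 0 lower, against 2.71% and 1.48% of all kept genes. The higher gene was Pdcd4, an inhibitor of the helicase eIF4A, at 11.77 with dexamethasone, 9.98 with PBS and 10.12 untreated. Of 19 cytoplasmic tRNA synthetases 0 were called, with a range of -0.50 to 0.28.

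Sterol synthesis genes lay below the PBS level almost throughout. Of 23 kept genes 22 lay below 0, 3 were lower and 0 higher, with a median of -0.53; against the untreated array the median was -0.30 and 1 gene was at least 2-fold lower than on both references. Idi1, which isomerises isopentenyl diphosphate, was at 7.45 on the dexamethasone array, against 8.48 on the PBS array and 8.38 on the untreated array, and Sqle, the squalene epoxidase, at 6.66 with dexamethasone, 7.65 with PBS and 7.27 untreated. Of 13 fatty acid synthesis genes 0 were called; Srebf1, their transcriptional regulator, was at 8.94 with dexamethasone, 9.90 with PBS and 9.32 untreated. Of 27 glycolysis and pentose phosphate genes 0 were called and 23 lay below 0, with a median of -0.17, against -0.07 over all kept genes. They ran from -0.87 for Ldhb, a lactate dehydrogenase subunit, to 0.88 for Pfkfb3, which makes fructose 2,6-bisphosphate. Gapdh differed by -0.25. Respiratory chain and ATP synthase genes were the most closely grouped of these lists, with 0 of 40 called, a range of -0.43 to 0.30 and a median of -0.03. Of 38 proteasome subunits the 1 lower gene was Psmb11, the thymoproteasome subunit of cortical epithelium, and the other 37 lay between -0.63 and 0.15.

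Metal, redox and lipid genes supplied several of the largest excesses. Mt1, a metallothionein that binds zinc and copper, was at 10.90 on the dexamethasone array, against 7.89 on the PBS array and 7.59 on the untreated array, and Mt2, its neighbour on chromosome 8, at 10.80 on the dexamethasone array, against 7.99 on the PBS array and 7.76 on the untreated array. Slc30a4, which moves zinc out of the cytoplasm, was at 9.53 with dexamethasone, 7.86 with PBS and 7.73 untreated, and these were the 3 higher genes of 18 kept metallothionein and zinc transporter genes. Hmox1, which breaks down heme, was at 8.52 on the dexamethasone array, against 6.15 on the PBS array and 5.71 on the untreated array, and Gclc, the catalytic subunit of glutathione synthesis, at 9.59 with dexamethasone, 8.18 with PBS and 8.49 untreated. With Txnip they made 3 higher and 0 lower of 26 redox and heme genes. Of 20 sphingolipid genes 3 were higher and 0 lower. Cers4, a ceramide synthase, was at 7.91 on the dexamethasone array, against 5.33 on the PBS array and 5.28 on the untreated array, Acer2 is given with the glucocorticoid-induced genes, and Sgpp1, a phosphatase of sphingosine 1-phosphate, was at 9.54 with dexamethasone, 8.11 with PBS and 7.99 untreated. Of 22 lipid oxidation and handling genes Cd36, a fatty acid and scavenger receptor, was at 8.96 with dexamethasone, 7.28 with PBS and 8.20 untreated and Fabp4, a fatty acid carrier, at 11.27 with dexamethasone, 10.22 with PBS and 10.58 untreated; neither reached 2-fold above the untreated array. Slc43a1, a transporter of large neutral amino acids, was at 8.80 on the dexamethasone array, against 6.48 on the PBS array and 6.19 on the untreated array. Slc16a1, the lactate transporter MCT1, was at 8.73 on the dexamethasone array, against 10.24 on the PBS array and 10.17 on the untreated array. They were the 1 higher and the 1 lower of 18 kept nutrient transporters, against 2.71% and 1.48% of all kept genes.

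Several ligands, receptors and matrix proteins were higher. Thbs1, the matricellular protein thrombospondin 1, was at 9.97 on the dexamethasone array, against 4.85 on the PBS array and 6.13 on the untreated array, a difference of 5.12, and its 3 probe sets ran from 5.12 to 5.23. Ccn1, a secreted integrin ligand, was at 9.15 on the dexamethasone array, against 5.65 on the PBS array and 6.18 on the untreated array. Plaur, the urokinase receptor, was at 6.63 with dexamethasone, 4.78 with PBS and 4.47 untreated, and Timp3, a metalloproteinase inhibitor, at 7.97 with dexamethasone, 6.56 with PBS and 6.77 untreated. These 4 of 11 kept matricellular and protease genes were higher than on both references, and 0 were lower. Thbs1, Ccn1 and Timp3 would not have been kept on the mean of the other 4 arrays, so the count depends on the filter. The list median was 0.41, and 0.35 without the level filter. Gdf15, a stress-induced cytokine of the TGF-β family, was at 7.89 on the dexamethasone array, against 4.69 on the PBS array and 4.66 on the untreated array. Of 25 kept cytokine, chemokine and growth factor genes on the list 2 were higher, against 2.71% of all kept genes. Ccl12, a ligand of CCR2, was at 8.07 with dexamethasone, 6.36 with PBS and 6.30 untreated. Ccl12 would not have been kept on the mean of the other 4 arrays. Ccl9 was at 8.05 with dexamethasone, 6.91 with PBS and 6.56 untreated. Tgfbr3, the TGF-β coreceptor betaglycan, was at 9.68 with dexamethasone, 8.05 with PBS and 8.39 untreated. It was the only higher gene of 27 cytokine receptors, a share near the 2.71% of all kept genes. Among 19 chemokine and lipid receptors 2 were higher and 3 lower. Gpr65, a proton-sensing receptor, was at 9.21 on the dexamethasone array, against 6.83 on the PBS array and 6.88 on the untreated array, and P2ry14, a receptor for UDP-glucose, at 6.92 with dexamethasone, 4.99 with PBS and 5.18 untreated. S1pr3, a sphingosine 1-phosphate receptor, was at 5.76 on the dexamethasone array, against 7.79 on the PBS array and 7.83 on the untreated array, Cxcr6, the receptor of CXCL16, at 6.27 with dexamethasone, 7.55 with PBS and 7.73 untreated, and P2rx1, an ATP-gated channel, at 5.64 with dexamethasone, 6.69 with PBS and 7.03 untreated. Of 22 integrin and adhesion genes Itga4, the α4 integrin chain, was at 9.02 with dexamethasone, 7.97 with PBS and 8.27 untreated and its ligand Vcam1 at 9.05 with dexamethasone, 7.99 with PBS and 8.09 untreated, neither 2-fold above untreated.

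The transporter, zinc, ceramide and receptor genes Slc43a1, Slc30a4, Cers4, Acer2 and Gpr65 were also at least 2-fold higher in cultured cells, by 1.65, 1.52, 3.25, 2.38 and 3.78. Thbs1, Ccn1, Gdf15, Hmox1 and Errfi1 differed in culture by -0.75, -0.19, 0.07, -0.03 and -0.06. All of these but Errfi1 lay below 5.28, the limit for a kept gene, on both cultured arrays. Their differences there are thus between low levels. In culture 151 kept genes (1.53%) were at least 2-fold higher and 85 (0.860%) lower, and this comparison shares no array with the one in animals. Of the 268 higher genes in animals 93 were also higher in culture, which is 34.7% of the list from animals and 61.6% of the list from culture. Of the 146 lower genes 24 were also lower in culture, 16.4% of the list from animals and 28.2% of that from culture. The immediate-early, replication and ribosome biogenesis lists had medians of opposite sign in the settings, as given above. Each setting had 1 array per group, so the difference between settings was not tested.

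**Figure D4:**
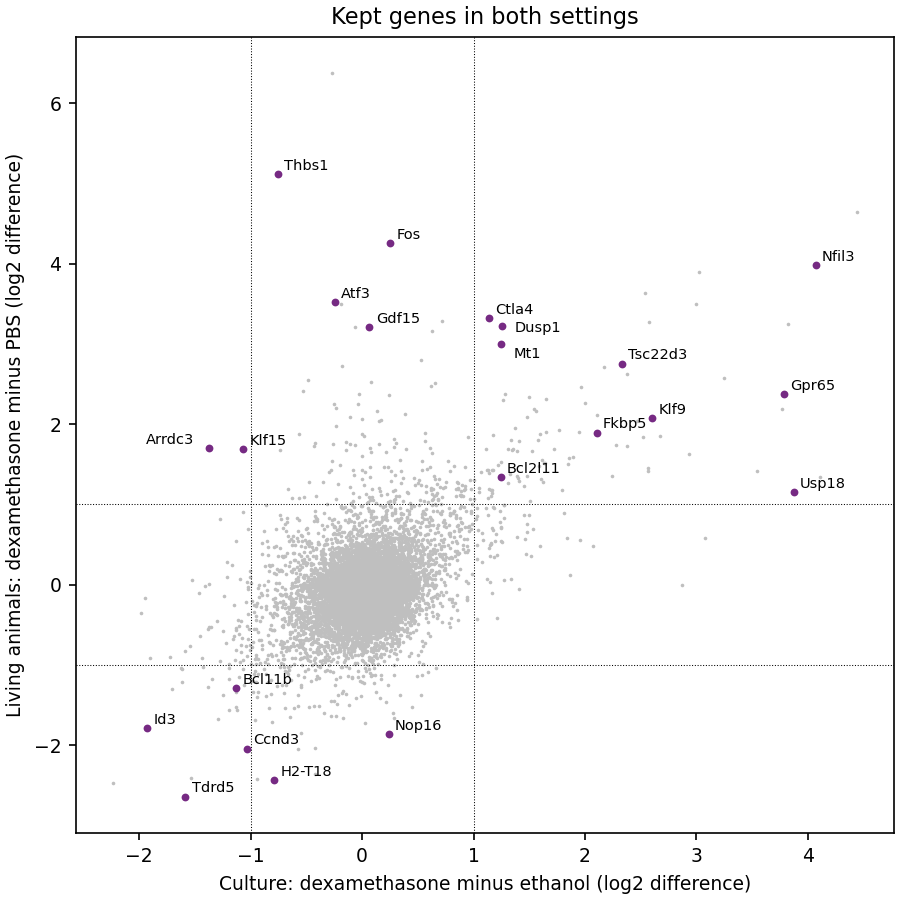
Log2 differences of 9882 kept genes in cultured cells (x axis, dexamethasone minus ethanol) and in living animals (y axis, dexamethasone minus PBS), 1 array per group; dotted lines mark 2-fold and 22 genes are labelled. Nfil3, Gpr65, Klf9 and Fkbp5 lie high on both axes. Thbs1, Fos, Atf3 and Gdf15 lie high on the y axis at culture differences between -0.75 and 0.25. Of these, Thbs1, Atf3 and Gdf15 lay below the limit for a kept gene on both cultured arrays.

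Stress, interferon and presentation genes gave mixed or reference-dependent values. Of 27 endoplasmic reticulum and amino acid stress genes 3 were higher and 0 lower. Eif2ak3, the kinase PERK, was at 10.86 on the dexamethasone array, against 8.73 on the PBS array and 9.36 on the untreated array. Herpud1, a component of membrane protein degradation, was at 10.50 with dexamethasone, 8.62 with PBS and 9.04 untreated, and Ppp1r15a, which restores translation after stress, at 7.64 with dexamethasone, 6.62 with PBS and 6.70 untreated. Xbp1, a transcription factor of the unfolded protein response, was at 10.06 with dexamethasone, 10.90 with PBS and 11.14 untreated. Among 23 heat shock genes the 1 called higher was Hspa1b, an inducible Hsp70, at 8.75 on the dexamethasone array, against 7.73 on the PBS array and 11.20 on the untreated array. Hspa1b was thus above PBS and far below the untreated array, and the median of the heat shock list was 0.01 against PBS and -0.62 against untreated. Of 27 interferon response genes 22 lay below 0, with a median of -0.30. Ifit1, an antiviral RNA-binding protein, was at 6.68 with dexamethasone, 7.85 with PBS and 8.25 untreated, whereas Usp18, which removes ISG15, was at 9.21 with dexamethasone, 8.06 with PBS and 8.32 untreated. H2-T18, a class I gene of the TL region, was at 6.53 on the dexamethasone array, against 8.97 on the PBS array and 8.36 on the untreated array, and H2-T10, a related non-classical gene, at 10.40 with dexamethasone, 11.47 with PBS and 11.09 untreated. Tap2, a subunit of the peptide transporter, was at 10.42 with dexamethasone, 9.25 with PBS and 9.09 untreated, and B2m differed by 0.11. Of 12 class II presentation genes 0 were called, and the list median had opposite signs against PBS (-0.16) and untreated (0.17).

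Among chromatin genes 2 of 29 were higher and 1 lower, against 2.71% and 1.48% of all kept genes. Counts this small do not set the list apart. Smarca2, an ATPase of SWI/SNF complexes, was at 8.19 with dexamethasone, 6.71 with PBS and 7.10 untreated, Hdac4 at 6.71 with dexamethasone, 5.62 with PBS and 5.90 untreated, and Hdac7, a class II deacetylase of thymocytes, at 7.91 on the dexamethasone array, against 9.24 on the PBS array and 9.43 on the untreated array. Of 20 ubiquitin ligase and deubiquitinase genes 4 were higher and 0 lower, namely Tnfaip3, Cblb, Usp18 and Usp2, a clock-linked deubiquitinase, at 6.15 with dexamethasone, 4.87 with PBS and 5.28 untreated. Lysosome genes (25), ion channel genes (23), other nuclear receptors (14) and Gimap genes (7) had 0 called members. In these lists Rara, a retinoic acid receptor, was at 4.96 with dexamethasone, 5.87 with PBS and 6.30 untreated. Gimap7, a GTPase of lymphocytes, differed by -0.64 and Gimap3 by 0.53.

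Markers of other cells were read because the suspensions were not sorted. Of 18 macrophage markers 12 were kept, 11 had a difference above 0, 2 were higher and 0 lower, and their summed linear level was 11334 on the dexamethasone array, 9848 on the PBS array and 9490 on the untreated array. Mrc1, the mannose receptor, was at 8.57 with dexamethasone, 6.89 with PBS and 7.07 untreated, and the abundant lysozyme gene Lyz2 differed by -0.06. Of 16 kept genes for the clearance of apoptotic cells 2 were higher, Cd36 and Cd300lf, and the median was 0.38. Cd300lf, a phosphatidylserine receptor of myeloid cells, was at 7.28 with dexamethasone, 5.81 with PBS and 5.22 untreated. All 8 kept adipocyte markers lay above 0, with a summed level of 9643 on the dexamethasone array, 5947 on the PBS array and 6963 on the untreated array; Fabp4 was higher, and Adipoq, which encodes adiponectin, was at 9.16 with dexamethasone, 8.27 with PBS and 8.78 untreated. The adipocyte sum was thus highest on the dexamethasone array and lower with PBS than untreated. The part of macrophages and adipocytes in the values of Hmox1, Cd36, Ccl12, Ccl9, Thbs1 and Fabp4 was not tested.

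The 15 kept thymic epithelium markers had 8 members above 0 and a summed level of 16585 on the dexamethasone array, 15764 on the PBS array and 14496 on the untreated array. Psmb11 was the 1 lower member, at 6.06 on the dexamethasone array, against 7.52 on the PBS array and 7.39 on the untreated array, while Ccl25, the epithelial chemokine, differed by 0.12. Stromal fibroblast markers summed to 6025 on the dexamethasone array, 5273 on the PBS array and 5239 on the untreated array, with 10 of 13 above 0 and Mgp, the matrix Gla protein, at 8.95 with dexamethasone, 7.88 with PBS and 7.96 untreated. The sums for dendritic cell markers (5 kept) were 1647 on the dexamethasone array, 1824 on the PBS array and 1619 on the untreated array, and those for B cell markers (7 kept) 1001 on the dexamethasone array, 986 on the PBS array and 1092 on the untreated array. Granulocyte markers (10 kept) summed to 5791 on the dexamethasone array, 5964 on the PBS array and 3500 on the untreated array, with Lcn2 as the 1 higher member. Erythroid markers (3 kept) summed to 5211 on the dexamethasone array, 4153 on the PBS array and 7278 on the untreated array, with Car2, a carbonic anhydrase, the 1 lower. Endothelial (5 kept), natural killer (4 kept) and platelet (1 kept) markers had 0 called members. Of 15 kept markers of mature single-positive thymocytes 1 was higher, Emb, an adhesion molecule at 11.34 with dexamethasone, 10.24 with PBS and 10.65 untreated, and the sum was 9321 on the dexamethasone array, 8927 on the PBS array and 8369 on the untreated array. Cd52 was at 10.43 with dexamethasone, 11.38 with PBS and 11.09 untreated and Cd69, an activation antigen, differed by 0.83. No marker list was at 0 on any array, since the deposited log2 values have no zeros. In culture the macrophage sum was 720 with dexamethasone and 1011 with ethanol, and the epithelial sum 507 and 534, so the cultured cells held far less of these transcripts than any array of the animals. The part of this gap in the differences between settings was not tested.

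**Figure D5:**
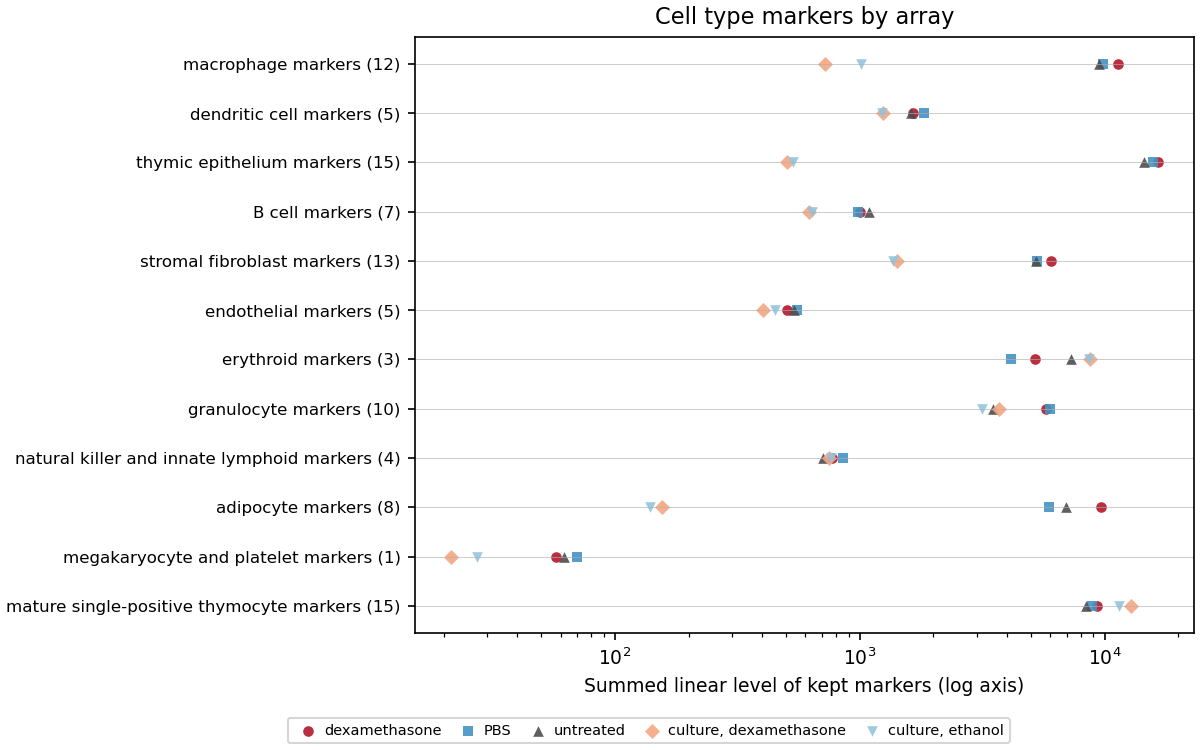
Summed linear levels, on a log axis, of the kept members of 12 marker lists (number kept in parentheses) on the 3 arrays of living animals and the 2 cultured arrays. Adipocyte, macrophage and fibroblast sums are highest on the dexamethasone array, and the macrophage, epithelial and adipocyte sums of both cultured arrays lie far to the left of the other 3.

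The remaining genes of the extremes belong to no list. Among the highest were BC018473, at 9.35 on the dexamethasone array, against 2.97 on the PBS array and 4.44 on the untreated array, and MGC58382, at 11.41 on the dexamethasone array, against 6.76 on the PBS array and 6.2 on the untreated array, both without an assigned function here. The other probe set of BC018473 differed by 0.24, at a mean level of 3.05. Ston1, an endocytic adaptor, was at 9.78 with dexamethasone, 5.88 with PBS and 6.55 untreated. Zfp704, a zinc finger gene, was at 9.13 with dexamethasone, 5.49 with PBS and 5.51 untreated. Sytl3, a Rab27 effector in vesicle traffic, was at 8.49 with dexamethasone, 4.99 with PBS and 5.10 untreated. All 3 were also higher in culture, by 3.02, 2.54 and 2.99, and all 3 had another probe set with a difference under 1. For Ston1 and Sytl3 those probe sets had mean levels below the limit for a kept gene. Dipk1b, a kinase-like secretory protein, differed by 3.25, Tcim, a regulator of Wnt signalling, by 2.73, Eppk1, the cytolinker epiplakin, by 2.52, Mlxip, a glucose-sensing transcription factor, by 2.46, and Cul4a, a cullin of ubiquitin ligases, by 2.42. The other probe sets of Cul4a differed by 2.16 and by 0.22, the latter at a mean level of 6.92. In culture Dipk1b and Mlxip differed by 3.83 and 1.97, but Tcim, Eppk1 and Cul4a by -0.18, 0.08 and -0.53. Tcim and Eppk1 lay below the limit for a kept gene on both cultured arrays. The RIKEN transcript 1200016E24Rik was at 11.26 with dexamethasone, 8.71 with PBS and 8.59 untreated.

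Among the lowest, Ankrd6, an ankyrin repeat protein of Wnt signalling, was at 5.15 on the dexamethasone array, against 7.57 on the PBS array and 8.12 on the untreated array, and Tctex1d1, a dynein light chain relative, at 5.17 on the dexamethasone array, against 7.59 on the PBS array and 7.36 on the untreated array. Ptp4a3, a phosphatase, was at 7.06 with dexamethasone, 9.11 with PBS and 8.64 untreated. Its other probe set differed by 0.06, at a mean level of 2.85. Greb1, an estrogen-regulated gene in human breast cells, was at 4.95 with dexamethasone, 6.81 with PBS and 6.72 untreated, and Tesc, a calcium-binding protein, at 6.17 with dexamethasone, 7.83 with PBS and 7.59 untreated. Galk1, the galactokinase, was at 6.40 with dexamethasone, 8.03 with PBS and 7.40 untreated, and Phlda1, a pleckstrin-homology gene, at 6.5 with dexamethasone, 8.06 with PBS and 7.71 untreated. Rapgef3, a cyclic AMP-activated exchange factor, differed by -1.53, Plxdc1 by -1.53, Snn by -1.56 and Abi3, of the WAVE complex, by -1.51. The unassigned transcripts C230098O21Rik, BC038167, D16Ertd727e, A630005I04Rik and 9930012K11Rik differed by -2.36, -1.71, -1.68, -1.53 and -1.52. For every gene in this paragraph the dexamethasone array was the lowest of the 3.

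At the 2-fold limit the calls separate near-equal values. Just inside on the higher side were Arid5a (1.0), Camk1d (1.0), A930024E05Rik (1.01), Bok (1.02) and Cidea (1.02), and just outside Gpx3, Gramd3, Pnpla2, D18Ertd232e and 2310050P20Rik, all a little under 1. Just inside on the lower side were Crmp1 (-1.0), Ets2 (-1.0), Rcbtb2 (-1.0), Chaf1b (-1.01) and Gata3 (-1.01), and just outside Cdk2 (-1.0), Psmc3ip (-0.99), Tmem97 (-0.99), E2f2 (-0.99) and Pou6f1 (-0.99). Of the 268 higher genes 175 had several probe sets; all of them were at least 2-fold higher in 51 genes, all had the same sign in 132, and in 1 another was at least 2-fold lower. Of the 146 lower genes 85 had several, with all at least 2-fold lower in 19, the same sign in 69 and an opposite call in 0. The higher genes had a median length from start to end of 30.5 kb (254 with a length). It was 17.5 kb for the lower genes (137) and 22.6 kb for all kept genes (9258). For genes higher than both references it was 24.2 kb (190), and for genes lower than both 19.2 kb (94).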

How the data were processed

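RNA from pooled thymic cells of mice was measured on 5 Affymetrix arrays, 1 per group as the labels give them. The deposited matrix gives 45101 probe sets a linear intensity on each array, which the authors computed by RMA, per the submitters' processing notes; its version is not stated there. The deposited log2 values equal the log2 of those intensities and were used as given, and no column was left unmapped. Precision is limited by the number of arrays, and no group has replicates. Gene symbols were brought up to date with RefSeq (GRCm38.p6), which also gave the start windows; 218 kept genes on chromosome 18 were not searched for motifs. A symbol took its probe set with the highest mean, and 6489 of the 9882 kept genes had several. Differences were computed with Python 3.11.15, pandas 2.3.3 and numpy 2.4.6, drawn with matplotlib 3.10.9, and tested on simulated data. The call limit was 1 on the log2 scale. The comparison, the 55 gene lists and the 12 marker lists were chosen with earlier results of these data known. Named genes are the 30 highest and 30 lowest among those 2-fold apart from both references, and in each list the called members, the up to 4 with the largest differences and the member with the highest mean, plus the 5 on each side of the limit; some genes that meet this rule are not reported here. Alternatives changed the reference, scaling, probe set rule, level filter and limit. In the authors' deposited table of this comparison 1260 probe sets were listed, 929 positive and 331 negative, and 414 of these stood for a kept gene.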

Additional observations from a re-analysis of the deposited data

Results flagged for a closer look

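Arrdc3, an arrestin-domain gene, was at least 2-fold apart in opposite directions in the animals and in culture: its difference was 1.70 with dexamethasone against PBS in living mice and -1.38 with dexamethasone against ethanol in culture. Klf15, a Krüppel-like factor, showed the same opposition, at 1.69 in living mice and -1.07 in culture. With 1 array per group the difference between the settings was not tested. In living mice the other probe set of Arrdc3 differed by -0.81, at a mean level of 6.63, and that of Klf15 by -0.11, at 3.79. Arrdc3 and Klf15 were the only 2 of the 268 higher genes that were 2-fold lower in culture. Of the 146 lower genes 0 were 2-fold higher there.

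Probe sets without a gene name stood outside every list. Of 702 such probe sets at or above the level limit, 35 were at least 2-fold higher on the dexamethasone array than on both the PBS and the untreated array and 10 at least 2-fold lower. Between PBS and untreated, 0 were 2-fold higher and 17 lower.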

How the results depend on the processing

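With the untreated array in place of PBS, 246 genes were at least 2-fold higher and 222 lower. Using the mean of both references gave 245 and 158, subtracting the median difference over kept genes 309 and 117, a renewed quantile step 272 and 157, the probe set with the next highest mean 295 and 145, and the mean over probe sets 241 and 116. Without a level filter 449 genes were higher than PBS and 309 higher than both references. With the limit at the 75th percentile of levels, 107 were higher and 47 lower than PBS, and 82 and 32 against both references. At 1.5-fold the counts were 640 and 728 against PBS and 463 and 462 against both; at 3-fold they were 106 and 23, and 80 and 15. Chosen after seeing the data were counts without the marker genes, 262 and 144, and counts over genes that also reach the level limit on the ethanol culture array, 183 and 131. Against the untreated array Hspa1b turned to -2.44, and with the mean over probe sets Shmt1 turned to -0.27. Of 356 named genes 118 moved by more than the PBS-untreated spread with the untreated reference and 74 with the mean over probe sets. List medians changed sign in 12 of 67 lists with the untreated reference, 4 with the mean over probe sets and 7 without the level filter; the causes were not tested. No paired analysis was possible because each group has 1 array, and for the same reason no array could be left out of a group.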

Other observations

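Some genes that lie next to each other on a chromosome were called together. Of 4845 adjacent pairs of protein-coding genes with both members kept, 9 had both members at least 2-fold higher, 5 both lower and 2 opposite calls. Fos and Jdp2, an AP-1 subunit and a repressor of AP-1, differed by 4.26 and 2.71 in living mice, but by 0.25 and 2.17 in culture. Ppp1r21 and Ston1, both tied to endosomal traffic, differed by 2.03 and 3.89 in living mice and by 2.47 and 3.02 in culture. Gpr171 and P2ry14, both G protein-coupled receptors, differed by 2.34 and 1.93, with 1.5 and 1.76 in culture. Samsn1, a lymphocyte adaptor, and Nrip1 differed by 1.39 and 1.34, with 1.14 and 0.07 in culture. Among the lower pairs, Ccnd3 and Bysl differed by -2.04 and -1.68, with -1.03 and -0.96 in culture, and Endou and Rapgef3 by -1.25 and -1.53, with -0.68 and -0.69 in culture. Cd300lf, a receptor of myeloid cells, differed by 1.47 while its neighbour Rab37 differed by -1.16. Ppp1r21, Gpr171, Samsn1 and Rab37 were chosen after their values were seen.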
